A study of Homo sapiens with 4 samples.

Results

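NRF2 is the transcription factor that turns on the cell's own defences against oxidants, and 9 of its target genes were followed here in THP-1 cells, an established human monocytic leukaemia line. The 9 genes are SLC7A11, GCLC, GCLM, TXN, TXNRD1, SRXN1, ME1, NQO1 and OSGIN1, taken as a named set from the 19775 genes that had a probe set of their own on the array. All 21 probe sets annotated to them were used, and the values are log2 expression values. The 4 arrays were, in turn, cells kept with platelet-like particles for 24 h, cells kept with the particles for 12 h, cells treated with Pam3CSK4, and resting cells. Co-culture times are those of the sample descriptions, from which the numbers in the sample titles differ. Per the series' design text, the co-cultured cells had received Pam3CSK4 as well, so Pam3CSK4 was common to every array but the resting one. Pam3CSK4, a synthetic bacterial-type lipopeptide, is sensed by TLR2 paired with TLR1. The labels do not name the cells that gave the particles, and they give neither a time nor a dose for Pam3CSK4. Each condition had 1 array, so no test was possible: a difference is that between 2 arrays of a single line, and the spread between cultures is unknown. The precision of each value is limited by this number of arrays. A probe set counted as past the filter where it reached 6.19 log2, the median of all values, on 1 array or more, which 18 of the 21 did. For each gene the probe set of highest mean stood for it, and those of all 9 genes were above 6.19 on every array.

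In resting cells KEAP1 holds NRF2, the product of NFE2L2, for destruction. Oxidants and electrophiles modify KEAP1, NRF2 then accumulates, pairs with a small MAF protein and binds the antioxidant response element of its targets. In monocytes and macrophages this programme supplies glutathione, reduced thioredoxin and NADPH while the cells make oxidants through the phagocyte oxidase. Several targets have other inputs too: SLC7A11 is also induced by the amino acid response factor ATF4.

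Promoter sequences of the targets were read to show where the element itself lies near their starts. RefSeq windows (GRCh38.p14) reaching 250 bases before and 50 bases after a gene's start were matched by symbol to 8 of the 9 genes, with 9 windows in all since TXNRD1 has 2 starts. SLC7A11 was not matched. The core of the antioxidant response element, TGACNNNGC, was searched on both strands, together with the AP-1 element TGANTCA, which can overlap it. The antioxidant element was present for GCLM, ME1 and both starts of TXNRD1, 3 of the 8 genes, and in 13.3% of 35116 windows of the same length. ME1 and OSGIN1 held the AP-1 element, which was present in 7.71% of all windows, and in ME1 it lies inside the antioxidant element. The 150 bases before the start are given below 5′ to 3′ on the strand of the gene for those 4 genes, and for NQO1 and SRXN1, whose windows held neither motif. NQO1 is shown for its difference with Pam3CSK4 and SRXN1 for its difference at 12 h. Capitals mark the motifs.
GCLM, chr1:93909431-93909580, minus strand: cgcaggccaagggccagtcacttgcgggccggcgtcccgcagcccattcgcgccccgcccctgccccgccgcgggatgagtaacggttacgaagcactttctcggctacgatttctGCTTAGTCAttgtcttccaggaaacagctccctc
ME1, chr6:83431052-83431201, minus strand: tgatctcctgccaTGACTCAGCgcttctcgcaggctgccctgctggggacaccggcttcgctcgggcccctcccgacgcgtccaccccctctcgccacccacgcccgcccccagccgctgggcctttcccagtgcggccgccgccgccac
TXNRD1, first start, chr12:104215629-104215778, plus strand: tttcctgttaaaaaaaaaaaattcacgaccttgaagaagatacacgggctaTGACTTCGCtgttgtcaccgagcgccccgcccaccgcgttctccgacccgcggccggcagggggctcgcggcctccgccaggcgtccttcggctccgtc
TXNRD1, second start, chr12:104286882-104287031, plus strand: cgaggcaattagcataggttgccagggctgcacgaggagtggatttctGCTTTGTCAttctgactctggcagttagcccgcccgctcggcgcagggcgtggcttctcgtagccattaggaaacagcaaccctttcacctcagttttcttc
OSGIN1, chr16:83953090-83953239, plus strand: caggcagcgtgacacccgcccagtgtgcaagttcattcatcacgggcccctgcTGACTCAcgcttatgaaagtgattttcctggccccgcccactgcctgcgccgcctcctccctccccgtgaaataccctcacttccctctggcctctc
NQO1, chr16:69726561-69726710, minus strand: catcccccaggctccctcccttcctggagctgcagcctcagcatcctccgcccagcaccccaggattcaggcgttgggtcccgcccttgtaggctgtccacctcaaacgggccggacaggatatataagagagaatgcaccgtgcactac
SRXN1, chr20:653201-653350, minus strand: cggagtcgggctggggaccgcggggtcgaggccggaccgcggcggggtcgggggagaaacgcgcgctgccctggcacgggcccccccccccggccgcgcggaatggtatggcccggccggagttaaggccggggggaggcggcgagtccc
The match of ME1, TGACTCAGC, begins 137 bases before the start, and the match of OSGIN1 is the AP-1 heptamer 97 bases before it. In GCLM, TGACTAAGC is read on the opposite strand and begins 34 bases before the start. TXNRD1 has TGACTTCGC 99 bases before its first start and, on the opposite strand, TGACAAAGC 102 bases before its second. A further match of ME1 after the start and 1 of TXNRD1 across its first start are not shown. A match of letters is a description and not a binding site, and its lack covers these windows alone.

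The arrays were close in distribution, with medians of 6.17 at 24 h, 6.22 at 12 h, 6.18 with Pam3CSK4 and 6.19 in resting cells. As a measure of RNA integrity, the 3′ control probe set of GAPDH exceeded the 5′ one by 0.70 log2 at 24 h, 0.92 at 12 h, 0.59 with Pam3CSK4 and 2.16 in resting cells. For ACTB the same excess was 2.90 at 24 h, 3.17 at 12 h, 2.91 with Pam3CSK4 and 3.41 in resting cells. Of 10 monocytic markers 8 had a probe set of their own, and 7 of these, LYZ, PTPRC and CD14 among them, lay above the median of all values on each array. FCGR1A was below it on every array. The summed level of the monocytic markers was 14.40 log2 at 24 h, 13.92 at 12 h, 14.27 with Pam3CSK4 and 13.41 in resting cells. The widest falls were those of CD14, with 7.74 log2 at 12 h and 8.93 with Pam3CSK4, and ITGAM, with 9.57 and 10.23. CSF1R went the other way, with 9.001 at 12 h and 8.673 with Pam3CSK4. CD4 was level, at 8.67 and 8.68. Among platelet and megakaryocyte markers no probe set exceeded 7.58 on any array, and 5 or 6 of 10 were above that median. Their summed level was 9.51 log2 at 24 h, 9.72 at 12 h, 9.40 with Pam3CSK4 and 9.67 in resting cells. Erythroid markers with a probe set of their own, 7 of 13, summed to 9.69 at 24 h, 9.67 at 12 h, 9.43 with Pam3CSK4 and 9.32 in resting cells. Among these HBE1 ranged most, with 7.50 at 24 h, 6.30 at 12 h, 5.45 with Pam3CSK4 and 5.42 in resting cells. Alpha globin probe sets, which match HBA1 and HBA2 alike, differed by 0.12 to 1.70 log2 at 24 h against Pam3CSK4. The widest of these differences was on a probe set under the filter level. Gamma globin, read by 3 probe sets that match HBG1 and HBG2 alike, stood between 9.95 and 10.30 log2 at 24 h, 9.20 and 9.39 at 12 h, 5.29 and 6.57 with Pam3CSK4 and 5.01 and 6.85 in resting cells. RNA of the THP-1 cells and RNA carried by particles cannot be told apart on these arrays, nor can fewer cells of a type and less RNA per cell.

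The cystine and glutathione genes came first by role. SLC7A11, the cystine importer that feeds glutathione synthesis, had 10.68 log2 at 24 h, 11.23 at 12 h, 10.54 with Pam3CSK4 and 9.65 in resting cells. It was highest at 12 h and lowest in resting cells on each of its 3 probe sets. GCLC, the catalytic subunit of glutamate-cysteine ligase, which makes the first and limiting bond of glutathione, had 10.26 log2 at 24 h, 10.60 at 12 h, 10.00 with Pam3CSK4 and 8.63 in resting cells. Its other probe set past the filter kept that order, at 9.83, 10.02, 9.52 and 8.40, while the last one, at 4.80 to 5.23, lay under the filter level. GCLM, the modifier subunit of the same enzyme, had 9.95 log2 at 24 h, 10.11 at 12 h, 9.94 with Pam3CSK4 and 9.88 in resting cells. All 4 values of GCLM fell within 0.23 log2. On a second GCLM probe set the 24 h array was the highest, at 10.03. The 12 h array had 9.64 there, Pam3CSK4 9.52 and resting cells 9.62. The third also put 24 h highest, with 8.98 against 8.89 at 12 h, 8.77 with Pam3CSK4 and 8.74 in resting cells. The order of the arrays thus rested on the probe set.

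Of the thioredoxin genes, TXN, which encodes thioredoxin itself, was level on its main probe set, with 14.06 log2 at 24 h, 14.00 at 12 h, 13.97 with Pam3CSK4 and 13.98 in resting cells. These values lie near the top of the scale, 15.22, where differences on an array are compressed. The other TXN probe set had 8.86 log2 at 24 h, 8.47 at 12 h, 8.49 with Pam3CSK4 and 8.67 in resting cells. TXNRD1, the NADPH-dependent reductase that recharges thioredoxin, had 11.06 log2 at 24 h, 11.51 at 12 h, 10.98 with Pam3CSK4 and 10.63 in resting cells. Its other probe set was at about 3 log2 on every array and carried no order. SRXN1, sulfiredoxin, which repairs over-oxidised peroxiredoxins, had 8.57 log2 at 24 h, 9.43 at 12 h, 8.53 with Pam3CSK4 and 8.40 in resting cells. For SRXN1 the 12 h array stood alone, and the other arrays lay between 8.40 and 8.57.

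ME1, cytosolic malic enzyme, which makes NADPH, had 11.23 log2 at 24 h, 11.51 at 12 h, 11.21 with Pam3CSK4 and 9.54 in resting cells. NQO1, the quinone reductase used as a reporter of NRF2 activity in many tissues, had 11.15 log2 at 24 h, 10.91 at 12 h, 11.11 with Pam3CSK4 and 8.97 in resting cells. In both genes resting cells stood apart and the other arrays lay together. OSGIN1, an oxidative stress-induced growth inhibitor, had 6.62 log2 at 24 h, 7.54 at 12 h, 6.76 with Pam3CSK4 and 6.66 in resting cells. As for SRXN1, only the 12 h array of OSGIN1 stood apart, on a probe set whose other values, 6.62 to 6.76, were not far above the filter level of 6.19.

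**Figure D1:**
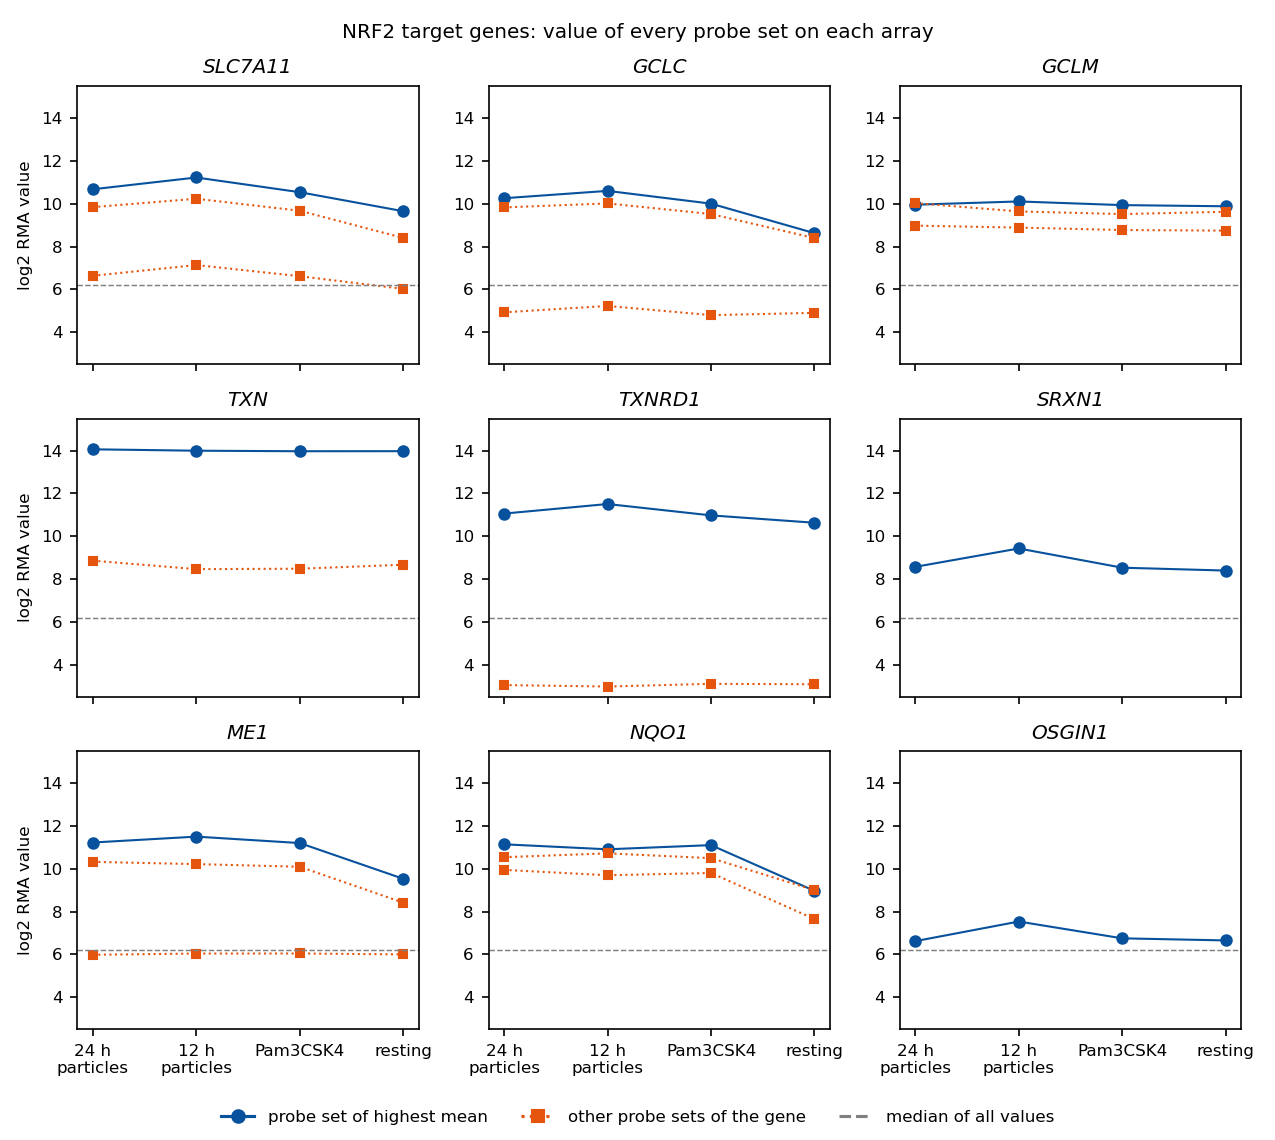
Log2 RMA value (y axis) of every probe set of the 9 NRF2 target genes on each of the 4 arrays (x axis), with the probe set of highest mean as blue circles, the gene's other probe sets as orange squares and the median of all values, 6.19, as a dashed line. SRXN1 and OSGIN1 peak on the 12 h array, at 9.43 and 7.54, while ME1 and NQO1 are lowest on the resting array, at 9.54 and 8.97.

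Pam3CSK4 alone went with higher NQO1, ME1 and GCLC and, to a lesser extent, SLC7A11, while GCLM, TXN, SRXN1 and OSGIN1 were near their resting levels. NQO1 was 4.40-fold higher with Pam3CSK4 than in resting cells, a difference of 2.14 log2, and its 3 probe sets gave 1.49 to 2.15. ME1 was 3.18-fold higher, with differences of 1.67 and 1.68 log2 on both probe sets above the filter. GCLC was 2.60-fold higher, at 1.38 and 1.12 log2. SLC7A11 was 1.85-fold higher, a difference of 0.89 log2 with a range of 0.59 to 1.27 over 3 probe sets, so that its place against 2-fold depended on the probe set. TXNRD1 differed by 0.34, SRXN1 by 0.13, OSGIN1 by 0.10, GCLM by 0.05 and TXN by -0.0035 log2. On its other probe set TXN differed by -0.18 log2.

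Counted at 2-fold, 3 of the 9 were higher with Pam3CSK4 and 0 were lower. With probe sets averaged, which takes in a GCLC probe set under the filter, GCLC was at 0.80 log2 and the count was 2. Among all 13410 genes past the filter, 4.14% were 2-fold higher and 1.71% 2-fold lower. At 1.5-fold the members' counts were 4 higher and 0 lower, against 7.58% and 5.89% of all genes. The members' median difference was 0.34 log2, beside -0.05 over all genes. By size of the difference NQO1 ranked 172 of 13410, ME1 274, GCLC 384 and SLC7A11 644. The 2 subunits of glutamate-cysteine ligase thus differed from each other on these arrays: GCLC by 1.12 to 1.38 log2 and GCLM by -0.11 to 0.05 over their probe sets above the filter. The control gap was 0.59 with Pam3CSK4 and 2.16 in resting cells for GAPDH, and 2.91 and 3.41 for ACTB, and the part of RNA integrity in these differences was not tested.

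After 12 h with the particles a partly different set of members stood above the Pam3CSK4 array, with GCLC and SLC7A11 again among them. SRXN1 was 1.86-fold higher, at 0.90 log2, and OSGIN1 1.72-fold higher, at 0.78 log2, each read by 1 probe set. SLC7A11 was 1.61-fold higher, at 0.69 log2 with a range of 0.52 to 0.69 over 3 probe sets, and GCLC 1.51-fold higher, at 0.60 and 0.50 log2. TXNRD1 was 1.44-fold higher, at 0.53 log2. ME1, at 0.30 and 0.12 log2, and GCLM, at 0.11 to 0.17 log2, differed by less, and TXN differed by 0.03 and -0.02 log2. NQO1 had no single direction, with -0.19 and -0.11 on 2 probe sets and 0.23 log2 on the remaining one.

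No member differed 2-fold at 12 h, in either direction, where 0.41% of all genes were 2-fold higher and 0.35% lower. At 1.5-fold, 4 of the 9 were higher at 12 h and 0 were lower, against 1.9% and 2.86% of all genes. Just inside that limit was GCLC at 0.60 log2 and just outside was TXNRD1 at 0.53. GCLC was under the limit, at 0.50 to 0.56 log2, with probe sets averaged, without _x_at and _s_at probe sets or with arrays centred on their medians, and TXNRD1 was over it, at 0.64, with cyclic loess. The members' median was 0.53 log2, beside -0.05 over all genes. Above 0 were 8 of 9 members, beside 5514 of 13410 genes, and 7 members with arrays centred on their medians. SRXN1 ranked 75 of 13410 by its difference, OSGIN1 119, SLC7A11 165, GCLC 240 and TXNRD1 325, while NQO1 ranked 9770. With a gene's probe sets averaged in place of the one of highest mean, the members' median was 0.20 log2. That mean takes in the probe sets of TXNRD1, GCLC and ME1 that lay under the filter. The GAPDH control gap was 0.92 at 12 h and 0.59 with Pam3CSK4, gamma globin was at least 2.62 log2 higher at 12 h on each probe set, the summed monocytic markers were at 13.92 and 14.27 log2, and the part of any of these in the members' values was not tested. Since the labels give no time for the Pam3CSK4 array, time and particles cannot be told apart.

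The 2 comparisons ranked the members differently. SRXN1 differed by 0.13 log2 with Pam3CSK4 against resting cells and by 0.90 at 12 h against Pam3CSK4. For NQO1 the values were 2.14 and -0.19 log2, and for ME1 1.67 and 0.30. GCLC and SLC7A11 were higher in both comparisons, by 1.38 and 0.60 log2 for GCLC and by 0.89 and 0.69 for SLC7A11. Both comparisons share the Pam3CSK4 array, which enters them with opposite sign.

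**Figure D2:**
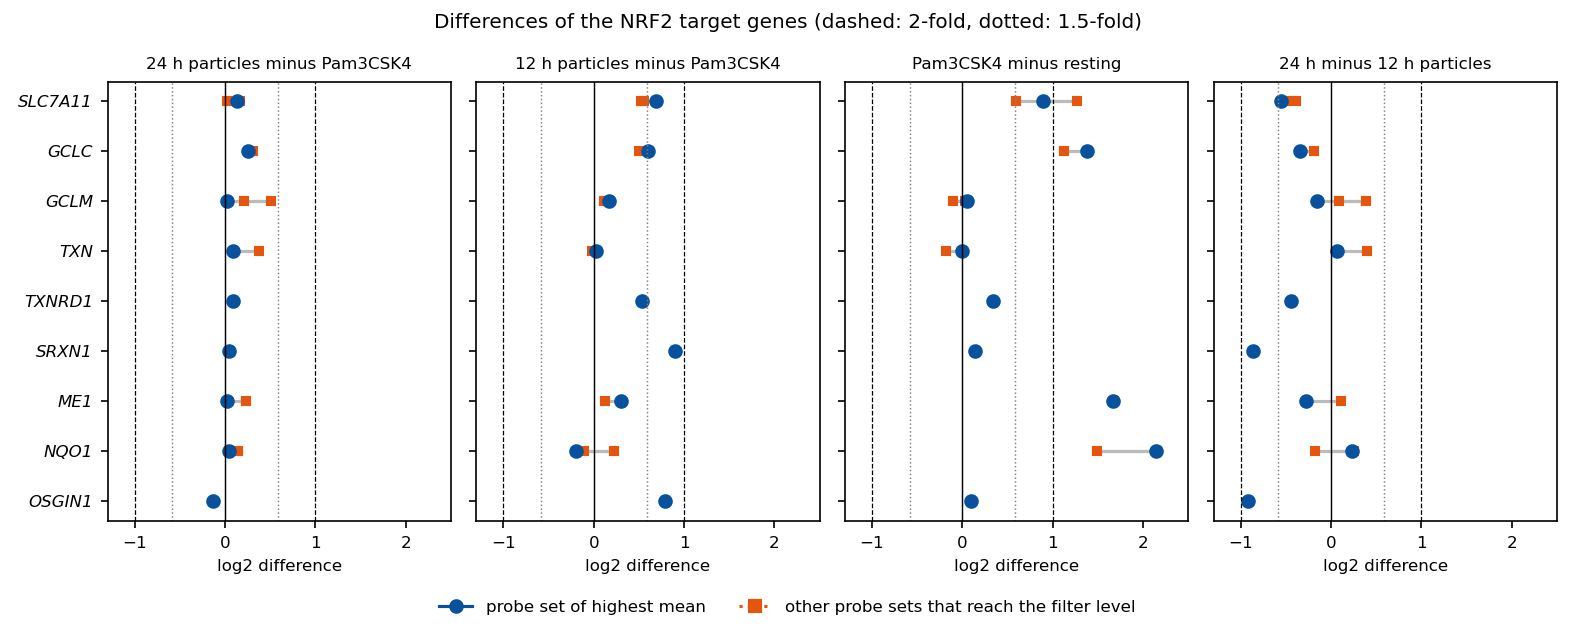
Log2 difference (x axis) of each NRF2 target gene in 4 comparisons, with the probe set of highest mean as a blue circle and other probe sets above the filter level as orange squares, dashed lines at 2-fold and dotted lines at 1.5-fold. NQO1, ME1 and GCLC pass 2-fold with Pam3CSK4, and SRXN1, OSGIN1, SLC7A11 and GCLC pass 1.5-fold at 12 h, whereas none passes 1.5-fold at 24 h against Pam3CSK4.

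At 24 h the members were near the Pam3CSK4 array on their main probe sets. With 1 array a time, a course over time and a departure of the 12 h array alone cannot be told apart. GCLC was the farthest above it, 1.19-fold higher at 0.25 and 0.31 log2 on its probe sets, followed by SLC7A11 at 0.14 log2. TXN differed by 0.09, TXNRD1 by 0.08, SRXN1 by 0.04, NQO1 by 0.04, ME1 by 0.03, GCLM by 0.02 and OSGIN1 by -0.13 log2. On other probe sets GCLM reached 0.51 log2 and TXN 0.37, the widest departures of any member at 24 h, and neither value was shared by the main probe set. At both 2-fold and 1.5-fold 0 of the 9 were higher and 0 lower. Few genes passed at all: 0.0298% of all genes were 2-fold higher and 0% lower, and 0.164% were 1.5-fold higher and 0.00746% lower. The members' median was 0.04 log2, beside -0.01 over all genes. All genes' differences also spread less here, with a robust SD of 0.12 log2, against 0.23 at 12 h against Pam3CSK4. Gamma globin was at least 3.38 log2 higher at 24 h than with Pam3CSK4 on each probe set, and its part in the members' values was not tested.

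Set against 12 h directly, the 24 h array was lower in OSGIN1 by 1.89-fold, at -0.92 log2, and in SRXN1 by 1.81-fold, at -0.86 log2. SLC7A11 differed by -0.55, TXNRD1 by -0.45, GCLC by -0.34, ME1 by -0.27 and GCLM by -0.15 log2, while NQO1 differed by 0.23 and TXN by 0.07. ME1 changed sign on another probe set, at 0.11 log2, and NQO1 did so at -0.18. GCLM changed sign on both of its other probe sets, at 0.39 and 0.09 log2. No member was 2-fold lower or higher, beside 0.224% and 0.343% of all genes. At 1.5-fold 2 of the 9, OSGIN1 and SRXN1, were lower and 0 higher, beside 1.38% and 3.14% of all genes. The median over the members was -0.34 log2 and that over all genes 0.04. From the highest difference down, SRXN1 ranked 13359 and OSGIN1 13365 of 13410. This is no independent reading of the 12 h differences from Pam3CSK4, since both comparisons use the same 12 h array, with opposite sign.

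Profiles over the 4 arrays, each centred on its own mean, were compared between members. The smallest root mean square distance between members was that of SRXN1 and OSGIN1, 0.08 log2. GCLM and TXN, both nearly level on their main probe sets, followed at 0.09, and GCLC and ME1 at 0.12. TXNRD1 was nearest to SRXN1, at 0.17, SLC7A11 to GCLC, at 0.23, and NQO1 to ME1, at 0.24. The members thus did not fall into separate pairs. For the 3 members with the widest range over the arrays, NQO1 at 2.18, GCLC at 1.98 and ME1 at 1.97 log2, the nearest of 13409 other genes were looked up. Those nearest NQO1 were GCNT2, a glycosyltransferase, TYMP, thymidine phosphorylase, and the growth factor gene PDGFA, at distances of 0.07 to 0.08. GCLC was nearest to FJX1, at 0.02, then SOWAHC and SGTB at 0.05. ME1 was nearest to ZMIZ2 at 0.05, then GEM, a small GTPase of the RAS family, and IFI35, an interferon-induced gene, at 0.05 and 0.06. FJX1 differed by 1.41 log2 with Pam3CSK4 and 0.54 at 12 h, beside 1.38 and 0.60 for GCLC. Its resting value, 5.70, was under the filter level, unlike that of GCLC. Resting values of SOWAHC, GCNT2 and GEM, 5.57, 5.88 and 4.94, were under it too. Over 4 arrays many genes share a profile, so these distances describe likeness only.

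The factors that act on these genes were read on the same arrays. NFE2L2, which encodes NRF2, had 12.06 log2 at 24 h, 12.16 at 12 h, 11.92 with Pam3CSK4 and 11.14 in resting cells. KEAP1, its inhibitor, had 10.51 log2 at 24 h, 10.81 at 12 h, 10.68 with Pam3CSK4 and 10.66 in resting cells. NFE2L2 was thus 0.78 log2 higher with Pam3CSK4 than in resting cells, with 0.52 on its other probe set, whereas KEAP1 differed by 0.02. NRF2 is mainly set at the protein level, which arrays do not read. BACH1, a repressor that competes for the same element, had 8.36 log2 at 24 h, 8.39 at 12 h, 8.11 with Pam3CSK4 and 7.76 in resting cells. MAFG, a small MAF partner, had 10.44 log2 at 24 h, 10.76 at 12 h, 10.41 with Pam3CSK4 and 10.38 in resting cells. Another small MAF gene, MAFF, had 8.40 log2 at 24 h, 9.04 at 12 h, 8.07 with Pam3CSK4 and 5.57 in resting cells, the last under the filter level. Its difference at 12 h against Pam3CSK4 was 0.97 log2, and 0.48 on its other probe set. With Pam3CSK4 against resting cells that other probe set differed by 0.23 log2 only, so the size of this difference depended on the probe set. SQSTM1, the p62 protein that draws KEAP1 into autophagy and is itself an NRF2 target, was 1.79 log2 higher with Pam3CSK4 and 0.60 higher again at 12 h. Its 4 probe sets spanned 0.04 to 1.79 and 0.38 to 0.71 log2 in these comparisons. NFE2L3, a relative of NRF2, differed by 2.82 log2 with Pam3CSK4 and by -0.42 at 12 h.

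**Figure D3:**
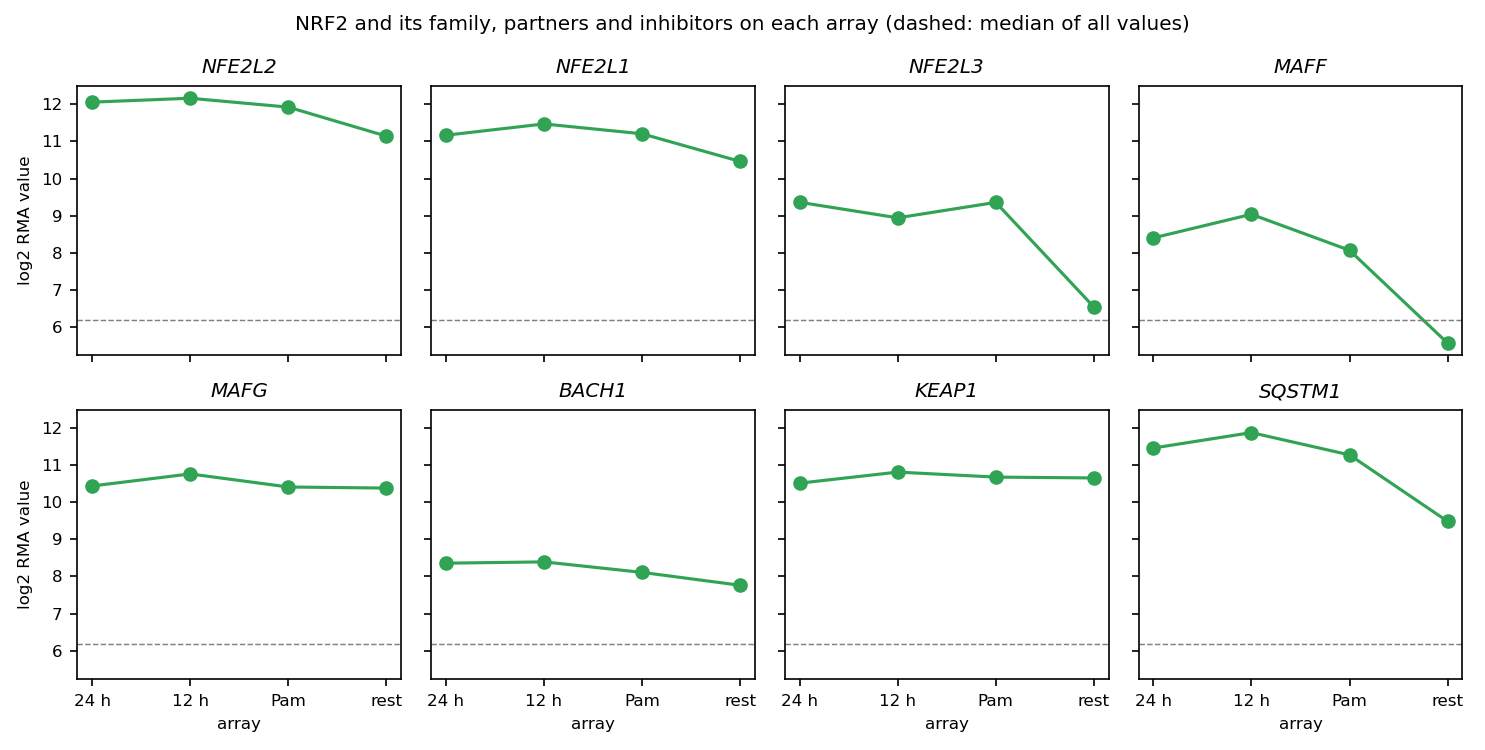
Log2 RMA value (y axis) of NRF2 (NFE2L2), its relatives, small MAF partners, the competitor BACH1, the inhibitor KEAP1 and SQSTM1 on the 4 arrays (x axis), 1 probe set a gene, with the median of all values dashed. MAFF is highest on the 12 h array at 9.04, NFE2L2 spans 11.14 to 12.16, and KEAP1 stays between 10.51 and 10.81.

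Of the 12 listed regulators 10 passed the filter, with 5 being 1.5-fold higher with Pam3CSK4 and 0 lower, and a median of 0.55 log2. These 5 were counted on the probe set of highest mean. MAFF, NFE2L2 and SQSTM1 among them were under 1.5-fold on another probe set. Over all genes 7.58% were 1.5-fold higher with Pam3CSK4 and 5.89% lower, with a median of -0.05, and the lists that follow stand beside the same shares. At 12 h against Pam3CSK4 2 of the 10, MAFF and SQSTM1, were 1.5-fold higher and 0 lower, with a median of 0.25, where 1.9% of all genes were higher and 2.86% lower, with a median of -0.05. Other NRF2 targets and redox genes were read by list. Among detoxification and export genes 14 of 21 entered, 4 were 1.5-fold higher with Pam3CSK4 and 0 lower, and the median was 0.22. PIR, pirin, an iron-binding nuclear protein, differed by 1.81 log2, TRIM16 by 1.08, the quinone reductase gene NQO2 by 0.86, with 0.28 on its other probe set, and the carbonyl reductase gene CBR3 by 0.78. At 12 h the same list had 1 gene higher, the glutathione conjugate exporter gene ABCC1 at 0.63, with 0.28 on its other probe set, and 1 lower, ABCC4 at -0.59, with a median of 0.09. These counts rest on the probe set of highest mean. For ABCC3 that probe set differed by -0.06 log2, while its 5 probe sets spanned -0.06 to 0.96. PIR then differed by 0.38 and TRIM16 by 0.44 log2. Of the haem and iron targets 6 of 7 entered, with 2 being 1.5-fold higher with Pam3CSK4, 1 lower and a median of 0.14, and with 0 higher, 0 lower and a median of 0.06 at 12 h. HMOX1, haem oxygenase, was 2.70 log2 higher with Pam3CSK4, from a resting value of 5.63 under the filter level, and 0.45 higher at 12 h.

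Lists of the wider glutathione, thioredoxin and NADPH systems had medians below 0 at 12 h, where the members' median was 0.53 log2. The list of glutathione synthesis and use had 23 of 26 genes entered, 0 of them 1.5-fold different in either direction and a median of -0.17 log2 at 12 h against Pam3CSK4. Thioredoxin partners and peroxiredoxins, 14 of 16 entered, also had 0 genes 1.5-fold different, and a median of -0.24. For NADPH supply, with 11 of 12 entered, the count was again 0 and the median -0.23. Of all genes 1.9% were 1.5-fold higher at 12 h and 2.86% lower, with a median of -0.05. That median was -0.09 with the 75th percentile filter and 0.0003 with cyclic loess. The lists were not recomputed in these settings, and some of their genes changed sign at 12 h on another probe set. The part of normalisation in the list medians was thus not tested. Counts of 0 in lists this short are close to those shares. With Pam3CSK4 against resting cells the glutathione list had 2 genes 1.5-fold higher and 3 lower, the thioredoxin list 1 higher and 1 lower, and the NADPH list 2 higher and 2 lower. PGD, a dehydrogenase of the pentose phosphate pathway, led the last at 1.66 log2 on 1 probe set and 0.05 on another. ME3, the mitochondrial malic enzyme, stood at -0.92 where ME1 stood at 1.67. PRDX1, a peroxiredoxin and NRF2 target, differed by 0.59, and SESN3, a sestrin, by -2.26. At 24 h against Pam3CSK4 no gene of any of these lists was 1.5-fold different, where 0.164% of all genes were higher and 0.00746% lower.

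**Figure D4:**
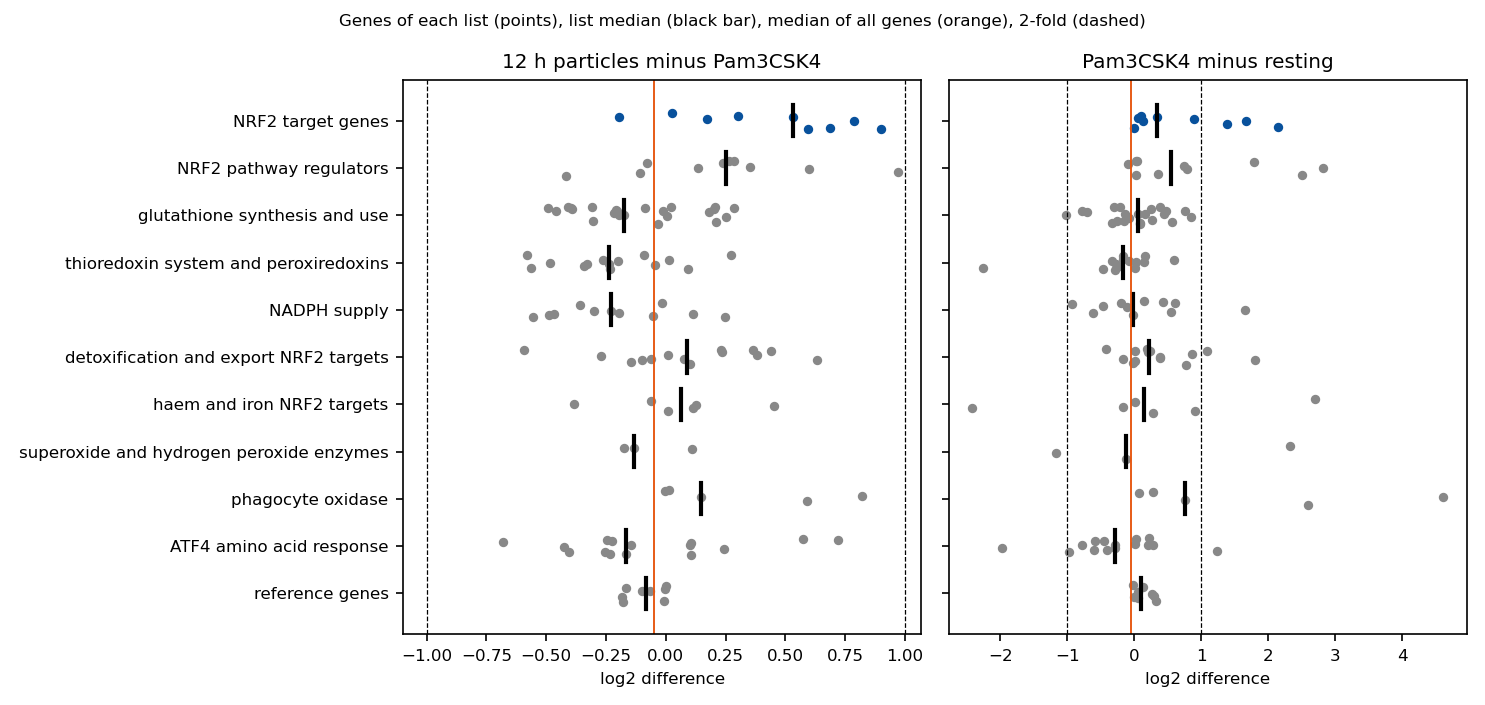
Log2 difference (x axis) of each gene that entered, by list (rows), at 12 h against Pam3CSK4 and with Pam3CSK4 against resting cells, with the list median as a black bar, the median of all genes as an orange line and 2-fold as dashed lines. At 12 h the 9 NRF2 targets have a median of 0.53 log2, while the glutathione, thioredoxin and NADPH lists have medians of -0.17, -0.24 and -0.23.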

How the data were processed

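Total RNA of THP-1 cells was hybridised to Affymetrix arrays, 1 per condition. The deposited values are log2 values made by the authors with RMA in affy 1.28.1, per the submitters' processing notes. RMA subtracts background, gives each array the same distribution and fits 1 value per probe set, so a global change in RNA content cannot be seen. Sorted columns differed by at most 0.11. Genome build and detection calls are not given in the sources used here, and no counts exist, so depth does not apply.

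Genes were named from a platform annotation: 41091 probe sets name 1 gene, 1801 several, and 11721 are not listed. RefSeq held the identifiers of 41037 of these and updated 0 symbols. A gene was its probe set of highest mean, and entered where that reached 6.19, the overall median, on any array. Differences of log2 values were counted at 2-fold and at 1.5-fold, without a test. Outside the 9 members, text names up to 4 genes a list and comparison past 1.5-fold, the regulators NFE2L2, KEAP1, BACH1 and MAFG, the reference genes ACTB and GAPDH, and the 3 nearest profiles of the 3 most variable members. ABCC3 is named besides, for the spread of its probe sets. The members, the 10 gene lists, the markers and these rules were chosen with earlier results of these data known. Reference genes ACTB and GAPDH differed by -0.10 and -0.18 at 12 h and by 0.13 and 0.32 with Pam3CSK4, and 0 of 8 reference genes were 1.5-fold different in any comparison.

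Alternatives were no filter, a 75th percentile filter, averaged probe sets, omission of _x_at and _s_at probe sets, cyclic loess (limma 3.58.1 in R 4.3.3, 3 iterations), centring of arrays on their medians and the 1.5-fold limit. Counting was tested on simulated data. Python 3.11.15, numpy 2.4.6, pandas 2.3.3 and matplotlib 3.10.9 were used.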

Additional observations from a re-analysis of the deposited data

How the results depend on the processing

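Of 208 recomputed differences of single members, 186 moved by less than 0.12 log2, the robust SD of all genes' differences between the 24 h and Pam3CSK4 arrays, and 22 moved by more. Sign changed in 7, all of TXN, GCLM or ME1 and none of them 2-fold different. The robust SD over all genes was wider in the other comparisons. It was 0.23 log2 for 12 h against Pam3CSK4, 0.26 for Pam3CSK4 against resting cells and 0.24 for 24 h against 12 h. TXN at 12 h against Pam3CSK4, 0.03 log2, was -0.02 both without _x_at and _s_at probe sets and with centred arrays, and ME1 at 24 h against 12 h, -0.27, was 0.11 without those probe sets, which also leave NQO1 with no value. With probe sets averaged the members' median was 0.20 at 12 h against Pam3CSK4 in place of 0.53, 0.18 with Pam3CSK4 against resting cells in place of 0.34, and -0.19 at 24 h against 12 h in place of -0.34. With the 75th percentile filter, which drops OSGIN1, the median with Pam3CSK4 was 0.62. The 1.5-fold limit gave 4 members higher at 12 h and 2 lower at 24 h against 12 h, in place of 0 each. The other 74 of 80 recomputed counts stayed within 1.5 times or medians within 0.12 log2. Among them the count of members 2-fold higher with Pam3CSK4, 3, was 2 with probe sets averaged, where GCLC stood at 0.80 log2, and 2 without _x_at and _s_at probe sets, where NQO1 had no value. GCLC at 12 h, 0.60, was under 1.5-fold with probe sets averaged (0.51), without those probe sets (0.50) and with centred arrays (0.56), and TXNRD1 was over it with cyclic loess (0.64). Over all genes, probe set means gave 26 in place of 47 genes 2-fold lower at 12 h, 21 in place of 46 higher at 24 h against 12 h, and 1 in place of 4 higher at 24 h against Pam3CSK4, as the 75th percentile filter did. No paired analysis was possible because each condition has 1 array.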

Other observations

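Genes that make oxidants or belong to a neighbouring stress response were read beside the NRF2 targets. CYBB, the catalytic subunit of the phagocyte oxidase, had 11.38 log2 at 24 h, 11.85 at 12 h, 11.03 with Pam3CSK4 and 6.42 in resting cells. CYBB was thus highest at 12 h, as SLC7A11, GCLC, GCLM, TXNRD1, SRXN1, ME1 and OSGIN1 were on their main probe sets. With Pam3CSK4 against resting cells it differed by 4.61 log2, and by 2.67 on its other probe set. NCF1, an organiser of the oxidase with near-identical gene copies that the array may not separate, was 2.59 log2 higher with Pam3CSK4 and 0.59 higher at 12 h. Of the 5 oxidase genes that entered, 3 were 1.5-fold higher with Pam3CSK4 and 0 lower, with a median of 0.76, beside 7.58% and 5.89% of all genes. At 12 h 2 were higher and 0 lower, with a median of 0.15, beside 1.9% and 2.86% of all genes. The enzymes of superoxide and hydrogen peroxide, 3 of 4 entered, had 1 gene higher and 1 lower with Pam3CSK4 and 0 of either at 12 h. Of these, SOD2, the mitochondrial superoxide dismutase, was 2.32 log2 higher with Pam3CSK4, while CAT, catalase, stood at -1.17, with -1.29 to -0.97 over 3 probe sets. The iron exporter gene SLC40A1 stood at -2.42, beside HMOX1 at 2.70.

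The ATF4 amino acid response list, 15 of 16 genes entered, had medians of -0.29 with Pam3CSK4 against resting cells and -0.17 at 12 h against Pam3CSK4. The part of ATF4 in the values of SLC7A11 was not tested. With Pam3CSK4 1 of the 15 was 1.5-fold higher, beside 7.58% of all genes, ATF3 at 1.23 on 1 probe set and -0.11 on another, and 5 were lower, beside 5.89% of all genes, among them VLDLR at -1.97, the asparagine synthetase gene ASNS at -0.97 and PSAT1, of serine synthesis, at -0.79, with -0.03 on its other probe set. At 12 h against Pam3CSK4 DDIT3, a factor of the stress response, was 0.72 higher and CBS stood at -0.68 log2, with -0.82 to -0.09 over its 3 probe sets.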
